A study of Ovis aries with 16 samples.

Results

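SELP, SELE and ICAM1 encode P-selectin, E-selectin and intercellular adhesion molecule 1, surface proteins through which the endothelium of a blood vessel binds leukocytes. Members were all array probes named for these 3 genes, which gave 5 of the 15008 different probes: 2 for SELP, 2 for SELE and 1 for ICAM1. The genes were selected on earlier results of the hypoxia and of the ketamine plus hypoxia comparison in these arrays, so their values in those comparisons are given as a description, without a test. Levels are log2 intensities after background correction and normalization between arrays.

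RNA came from the frontal cortex of 16 late gestation fetal sheep, with 1 array per fetus. All of them carried surgically placed vascular catheters and were killed 24 h after a stimulus of 30 min had begun. The 3 fetuses of normoxia control received neither ketamine nor low oxygen, and the 4 of normoxia + ketamine received 3 mg/kg ketamine intravenously without low oxygen. In the 5 fetuses of hypoxia control the ewe breathed added nitrogen through the trachea, and the 4 of hypoxia + ketamine had the same stimulus after the same dose. Most fetuses were twins and the labels do not tie littermates, so the tests treat fetuses as independent. One label conflicts: hypoxia control replicate 1 is titled and coded as hypoxia control, as used here, while 2 other label fields describe normoxia with ketamine.

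Arrays lay on 2 slides that each held all 4 groups, and between 69.2 and 76.9% of the spots of an array were well above background. Genes of astrocytes and neurons that had a named probe (GFAP, AQP4, GJA1, EAAT1 and GRIN1) were well above background on all 16 arrays, whereas none of 15 further neuron markers had one. In RNA from whole cortex, fewer endothelial cells and less RNA per endothelial cell cannot be told apart.

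Leukocytes leave the blood in steps. P-selectin, which endothelial cells and platelets keep in storage granules and move to the surface on activation, and E-selectin, which endothelial cells make anew after cytokine stimulation, let passing leukocytes tether and roll. ICAM-1 then binds the leukocyte integrins LFA-1 and Mac-1, which arrests the cell. Tumor necrosis factor and interleukin-1 induce SELE and ICAM1 through NF-κB, and the resting brain endothelium carries little of either selectin.

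The probes are shown because the result turns on which transcript each of them reads. The ICAM1 probe has no stop codon in any frame. The 2 SELE probes overlap by 20 bases, printed in capitals, so they are not independent readings of that transcript. In the frame without a stop in SELE probe A, probe B holds a stop codon (TAA) at its base 52 with 6 bases after it, and so covers the end of the coding region. For the 2 SELP probes, which lie 9 bases apart on the transcript, the first 30 bases are given and their place relative to the coding region was not annotated here.
SELP probe A: cagctttcccgaaaagacttgattataact
SELP probe B: taaaggacatggaatttcctttagatttgt
SELE probe A: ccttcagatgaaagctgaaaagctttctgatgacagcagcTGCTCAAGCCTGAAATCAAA
SELE probe B: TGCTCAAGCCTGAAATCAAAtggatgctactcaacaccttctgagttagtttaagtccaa
ICAM1 probe: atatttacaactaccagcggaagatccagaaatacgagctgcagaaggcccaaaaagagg

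The longest stretch that any of the 5 shared with a probe of another gene was 15 bases, for ICAM1. In the sheep RefSeq gene order (assembly ARS-UI_Ramb_v3.0), ICAM1 lies between MRPL4 and ICAM4.

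SELP was near background in normoxia and spread widely after hypoxia. Replicates 1 to 3 of normoxia control read 7.24, 6.93 and 6.96 on SELP probe A, and replicates 1 to 4 of normoxia + ketamine read 6.92, 6.82, 7.04 and 6.85. Replicates 1 to 5 of hypoxia control read 10.24, 9.85, 8.81, 11.59 and 7.43, and those of hypoxia + ketamine 8.32, 8.25, 7.13 and 7.68. Replicates 4, 1 and 2 of hypoxia control were thus the highest of all fetuses, replicate 5 lay below 3 of the 4 hypoxia + ketamine values, and every hypoxia control value exceeded every normoxia control value.

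Mean SELP probe A was highest in hypoxia control, at 9.58 ± 1.56 (SD, n = 5), followed by hypoxia + ketamine at 7.85 ± 0.56 (n = 4), normoxia control at 7.05 ± 0.17 (n = 3) and normoxia + ketamine at 6.91 ± 0.10 (n = 4). The values of every neighbouring pair in this order overlapped, hypoxia + ketamine replicate 3 lying below normoxia control replicate 1. The probe was well above background on 5 of 5, 4 of 4, 2 of 3 and 1 of 4 arrays in the same order of groups, so the normoxic levels were at the limit of measurement.

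SELP probe B gave the same order within hypoxia control on a lower scale. It read 6.95, 6.96 and 6.78 in normoxia control and 9.45, 8.70, 8.12, 10.60 and 7.02 in hypoxia control, so these groups did not overlap here either. In hypoxia + ketamine the readings were 7.72, 7.84, 7.04 and 7.40. In normoxia + ketamine they were 6.76, 7.57, 6.72 and 6.76, and replicate 2, the only array of that group where probe B was well above background, read 6.82 on probe A. Apart from that fetus, both probes ordered the 4 groups alike.

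**Figure D1:**
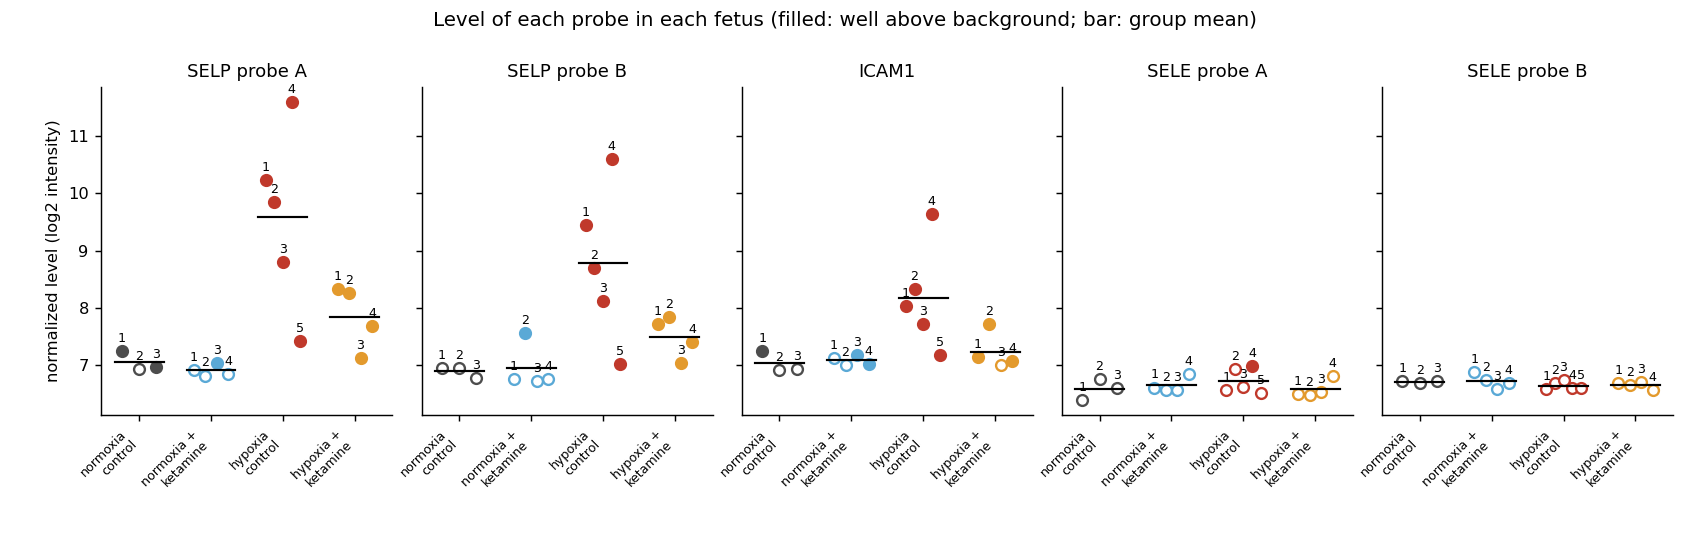
Normalized level (log2 intensity, vertical axis) of each probe in each fetus, by group (horizontal axis). Points are fetuses numbered by replicate, filled where the spot was well above background, and bars are group means. SELP probe A spanned 7.43 to 11.59 in hypoxia control and 6.93 to 7.24 in normoxia control, while both SELE probes stayed between 6.39 and 6.99 in all fetuses.

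In hypoxia control, SELP probe A was 2.54 higher than in normoxia control (log2 difference, SE 0.63, 5.80-fold), an increase that ranked 8 among the 15008 probes. Probe B was 1.89 higher (SE 0.55), at least 3.69-fold, since it was not well above background on any normoxia control array. The groups did not overlap on either SELP probe, and overlapped on both SELE probes and on the ICAM1 probe. This comparison was among those that chose the genes, and the share of all probes without overlap is not given. By another measure, limma at an unadjusted P under 0.05, 3.30% of all probes were called higher and 4.70% lower. With median scaling in place of quantiles the split of calls was 109 higher and 25 lower, and with the processed signal at the 75th percentile 560 and 438, against 496 and 705 here. The size depended on the processing: from the scanner's own processed signal, scaled to that percentile, the probe A difference was 4.44. Without replicate 1, whose labels conflict, it was 2.37, without replicate 4 it was 2.03 and without replicate 5 it was 3.08.

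Ketamine before hypoxia went with a lower SELP level than hypoxia alone. Relative to hypoxia control, probe A differed by -1.74 (log2 difference, SE 0.58, 3.33-fold lower) and probe B by -1.28 (SE 0.50). In this comparison 5.46% of all probes were called higher and 3.56% lower, which is 820 and 535 probes, but 8 and 104 with median scaling. The probe A difference was -1.76 among the arrays of slide 1 and -1.87 among those of slide 2, and -1.57 without hypoxia control replicate 1. Without replicate 4, the fetus with the highest level, it was -1.23.

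Comparisons that did not choose the genes could be tested, although they share arrays with those that did. Against normoxia + ketamine, SELP probe A was 0.94 higher in hypoxia + ketamine (SE 0.61, 95% interval -0.36 to 2.24). All 4 hypoxia + ketamine fetuses lay above all 4 normoxia + ketamine fetuses, and the two-sided exact permutation test gave p = 0.0286, the smallest that 4 against 4 allow. This p was not adjusted for the tests of the other member probes, and the share of all probes without overlap is not given. SELP probe A was well above background on only 1 of the 4 normoxia + ketamine arrays. In the limma model, whose spread includes the wide hypoxia control group, the adjusted P over all probes was 0.821. Probe B was 0.55 higher (SE 0.53), with overlapping groups (exact permutation p = 0.0857, limma adjusted P = 0.901).

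The share of all probes called in that comparison was 3.10% higher and 3.75% lower, or 465 and 563 probes, against 90 and 234 with median scaling. The SELP difference was 1.42 on slide 1 and 0.46 on slide 2, where each group had 2 fetuses. If the array with conflicting labels is counted as normoxia + ketamine, the difference was 0.27 (SE 0.77).

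Ketamine without hypoxia gave no SELP difference that passed a test, and on both probes the ranges of the normoxia groups overlapped. Probe A differed by -0.14 (SE 0.66, 95% interval -1.54 to 1.27) and probe B by 0.06 (SE 0.57) from normoxia control. The exact permutation p was 0.20 and 1.00, where 0.0571 is the smallest that 4 against 3 allow, and the limma adjusted P was 0.9998 for both. In that comparison 0.873% of all probes were called higher and 1.43% lower, which is 131 and 214 probes, against 13 and 43 with median scaling and 168 and 169 with the processed signal at the 75th percentile. The intervals are wide, so the model did not exclude a change of about 1 log2 unit either way for SELP. Their width comes from a spread over all 4 groups that includes the wide hypoxia control group. On probe A the SD was 0.17 in normoxia control and 0.10 in normoxia + ketamine, at levels near the limit of measurement.

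The effect of hypoxia with ketamine minus that without it was -1.60 for SELP probe A (SE 0.88, 95% interval -3.47 to 0.27) and -1.34 for probe B (SE 0.76). For ICAM1 it was -0.995 (SE 0.52, 95% interval -2.11 to 0.11), and for SELE probe B 0.00 (SE 0.09). These values contain the comparison that chose the genes and carry no test.

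SELE, the other endothelial selectin of this set, was at background throughout. SELE probe B, the brighter of its probes, was not well above background on any of the 16 arrays, and probe A only on that of hypoxia control replicate 4. In this fetus SELE probe A read 6.99, its highest level, and SELP and ICAM1 also had theirs there. The other hypoxia control readings of SELE probe A were 6.57, 6.94, 6.62 and 6.51, against 6.39, 6.76 and 6.61 in normoxia control, so the groups overlapped. In normoxia + ketamine it read 6.61, 6.56, 6.57 and 6.85, and the hypoxia + ketamine readings were 6.50, 6.48, 6.53 and 6.81.

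SELE probe B varied less still. Normoxia control fetuses read 6.72, 6.69 and 6.73, and those of normoxia + ketamine 6.88, 6.75, 6.59 and 6.68. Hypoxia control fetuses read 6.58, 6.69, 6.74, 6.60 and 6.60, and those of hypoxia + ketamine 6.68, 6.65, 6.71 and 6.57. Every group overlapped every other. The brightness of these spots does not fix a transcript level, and a change in SELE below the detection limit of the probes was not detectable.

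Between hypoxia control and normoxia control, SELE probe A differed by 0.14 (SE 0.13) and probe B by -0.07 (SE 0.06). Between hypoxia + ketamine and hypoxia control the values were -0.14 (SE 0.12) and 0.01 (SE 0.06). The tested comparisons gave 0.01 for ketamine in normoxia (SE 0.07, exact permutation p = 0.83) and -0.07 for hypoxia + ketamine against normoxia + ketamine (SE 0.06, exact permutation p = 0.371), both for probe B. Their limma adjusted P was 0.9998 and 0.884.

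ICAM1 had a smaller difference than SELP with the same fetuses at its ends. Normoxia control fetuses read 7.25, 6.91 and 6.94, and those of normoxia + ketamine 7.12, 7.00, 7.18 and 7.02. The 5 hypoxia control readings were 8.02, 8.33, 7.71, 9.63 and 7.18, and those of hypoxia + ketamine 7.15, 7.71, 7.00 and 7.07. In hypoxia control, replicate 4 was the highest and replicate 5 the lowest, as for SELP, and 4 of the 5 values exceeded all of normoxia control. In hypoxia + ketamine, replicate 2 alone stood above both normoxia groups.

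Mean ICAM1 was again highest in hypoxia control, at 8.18 ± 0.92 (SD, n = 5), followed by hypoxia + ketamine at 7.23 ± 0.33 (n = 4), normoxia + ketamine at 7.08 ± 0.09 (n = 4) and normoxia control at 7.03 ± 0.19 (n = 3). Every neighbouring pair in the order of means overlapped. The spot was well above background on 5 of 5, 3 of 4, 2 of 4 and 1 of 3 arrays in that order.

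Hypoxia control exceeded normoxia control by 1.14 for ICAM1 (log2 difference, SE 0.37, 2.21-fold, rank 71 of 15008 probes). Hypoxia + ketamine differed from hypoxia control by -0.94 (SE 0.34, 1.93-fold lower). From the processed signal the same differences were 2.76 and -2.14. Replicate 4 carried part of them: without it they were 0.78 and -0.58. Without replicate 1, whose labels conflict, they were 1.18 and -0.98.

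In the comparisons that could be tested, ICAM1 differed by less than the spread between fetuses. It was 0.05 higher with ketamine in normoxia (SE 0.39, 95% interval -0.78 to 0.88; exact permutation p = 0.686, limma adjusted P = 0.9998). Hypoxia + ketamine exceeded normoxia + ketamine by 0.15 (SE 0.36, 95% interval -0.62 to 0.92; exact permutation p = 0.571, limma adjusted P = 0.973). Within slides this last value was 0.37 and -0.07, and it was -0.01 without hypoxia + ketamine replicate 2 and -0.04 with the array of conflicting labels counted as normoxia + ketamine.

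**Figure D2:**
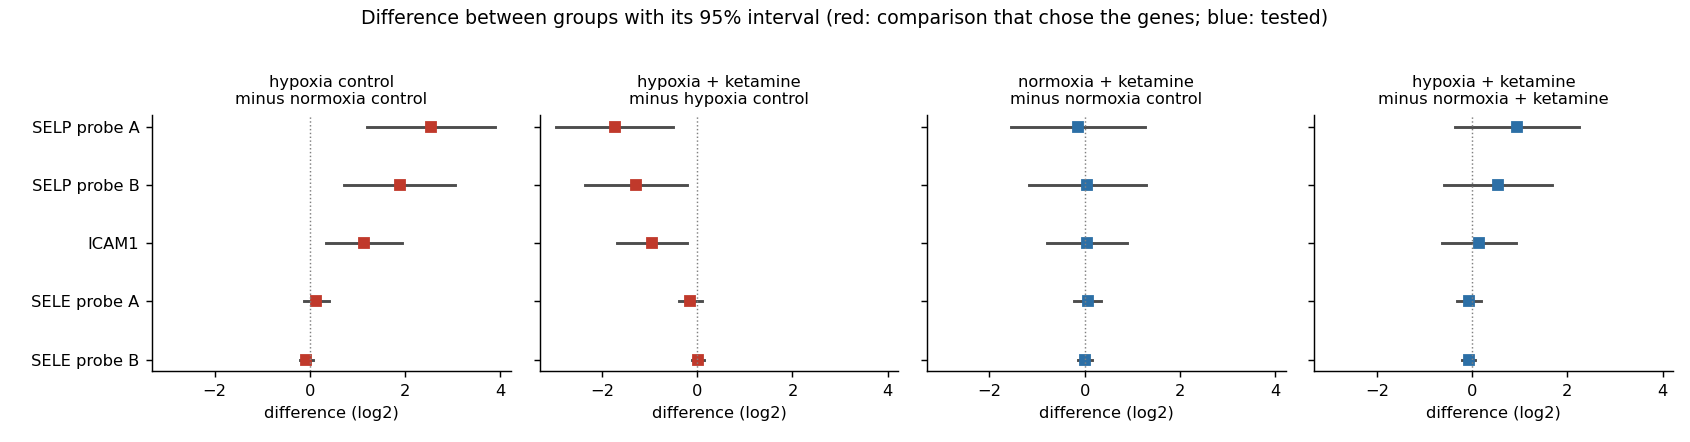
Difference between group means (log2, horizontal axis) for each probe (vertical axis) in 4 comparisons. Squares are estimates of the model over all 16 arrays and lines their 95% intervals, red for comparisons that chose the genes and blue for tested ones. The SELP probe A interval ran from 1.19 to 3.88 for hypoxia and from -0.36 to 2.24 for hypoxia + ketamine against normoxia + ketamine.

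SELP and ICAM1 varied together from fetus to fetus. Over the 16 arrays SELP probe A correlated with ICAM1 at r = 0.94 (Spearman 0.81) and with SELP probe B at r = 0.97. With the 2 SELE probes its correlation had opposite signs, r = 0.45 for SELE probe A and -0.42 for SELE probe B. Without the 2 fetuses farthest from the median these were -0.19 and -0.46. After each group's mean was taken away, r was 0.91 for SELP probe A with ICAM1, and without the 2 fetuses farthest from the median it was 0.89. These are descriptions over points that share arrays, the hypoxic fetuses supply most of the range, and SELE was at background.

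**Figure D3:**
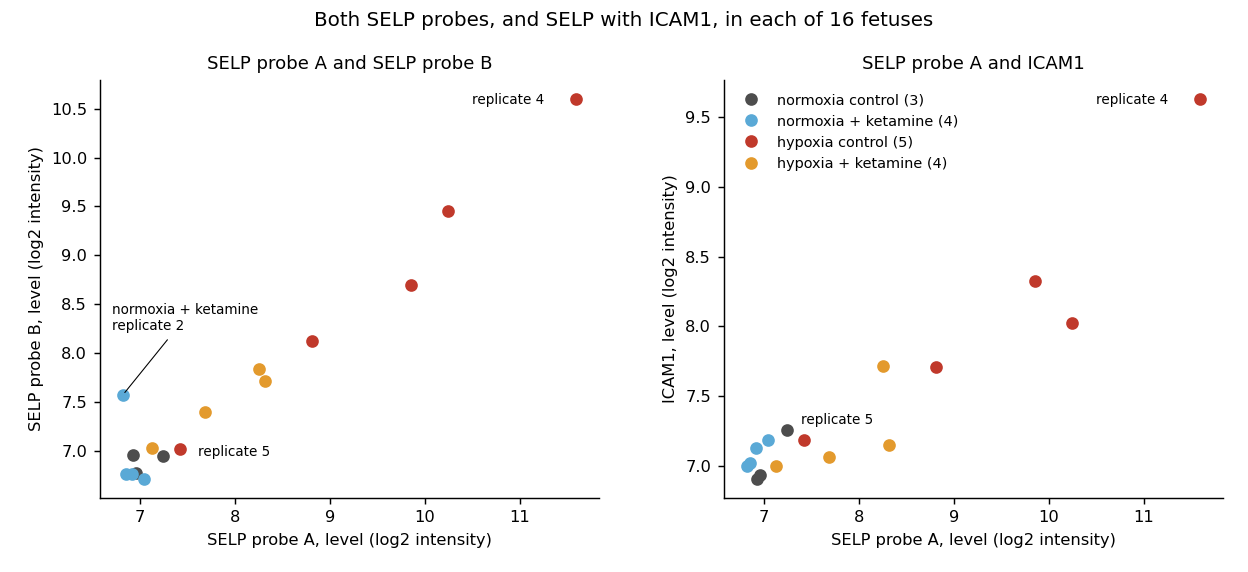
Levels (log2 intensity) of SELP probe A (horizontal axes) against SELP probe B (left) and ICAM1 (right), 1 point per fetus, coloured by group. Hypoxia control replicates 4 and 5 mark the ends of their group on both panels, and normoxia + ketamine replicate 2 lies off the line of the other fetuses on the left, at 6.82 for probe A and 7.57 for probe B.

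Among 717 other named genes that were well above background on at least 8 arrays, those with the pattern most like SELP probe A were MTHFD2 (r = 0.94 over 16 arrays), CCN1 (0.93), RCAN1 (0.92), NFKBIA (0.92) and PDXK (0.90). NFKBIA encodes the inhibitor that holds NF-κB in the cytoplasm, CCN1 a matricellular protein, RCAN1 a regulator of calcineurin, MTHFD2 a mitochondrial enzyme of folate metabolism and PDXK pyridoxal kinase. Between hypoxia control and normoxia control they differed by 0.70, 1.17, 0.49, 1.33 and 1.24 in the order of likeness, all below the 2.54 of SELP.

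The genes most like ICAM1 were CD40 (r = 0.94), MCL1 (0.92), RTP4 (0.92), CCN1 (0.90) and IFNAR2 (0.90). CD40 is a costimulatory receptor of the tumor necrosis factor receptor family, MCL1 an anti-apoptotic protein and IFNAR2 a subunit of the type I interferon receptor. These likenesses leaned on few fetuses: without the 2 farthest from the ICAM1 median, r was 0.64 for CD40, 0.60 for MCL1, 0.65 for RTP4 and 0.44 for IFNAR2, but 0.85 for CCN1. For SELP it stayed between 0.80 and 0.93 for all 5 genes. CCN1 was on both lists. For SELE probe B the best match, CHRM3, reached 0.68 and fell to 0.34 without the farthest 2.

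**Figure D4:**
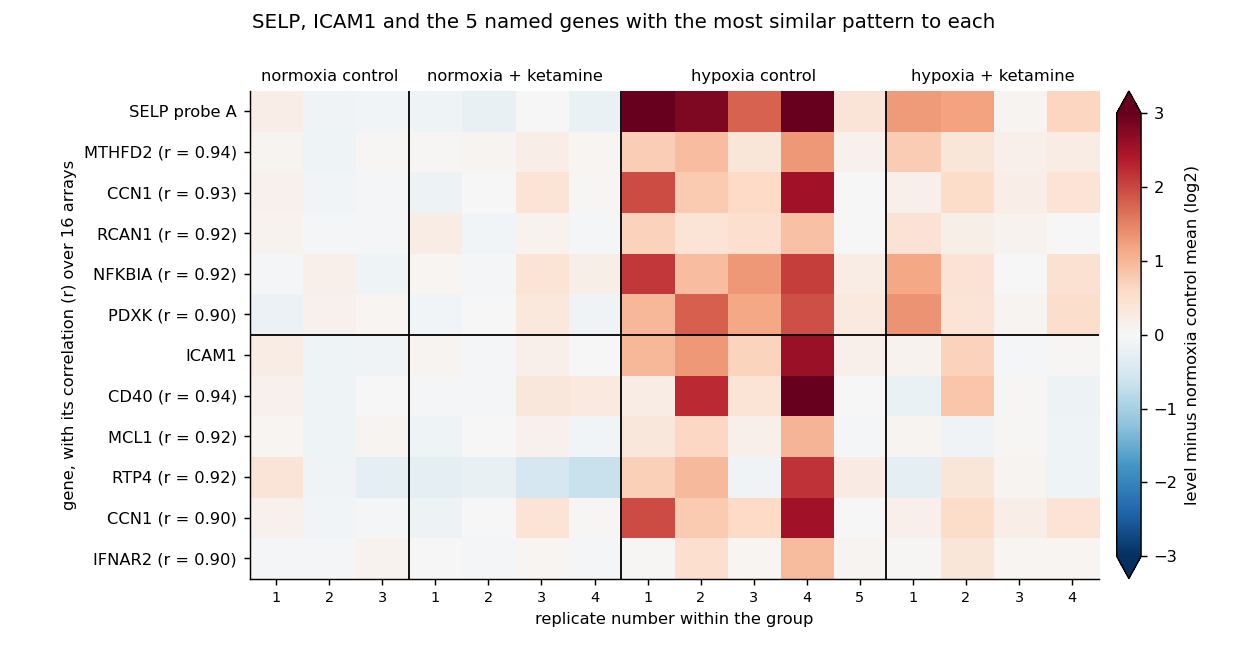
Level of SELP probe A, ICAM1 and the 5 named genes most like each (vertical axis) in every fetus (horizontal axis, grouped and numbered by replicate), as the log2 level minus the normoxia control mean, with colours that saturate at 3 log2 units. Hypoxia control replicates 1 to 4 were raised for SELP, replicate 5 of that group was close to the normoxia controls, and CD40 was raised most in replicates 2 and 4.

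The genes around the adhesion step were read from lists, with 1 probe per gene. The list of adhesion molecules of the vessel wall held 21 other genes, among them CD40, which is a costimulatory receptor. Of these genes 4, CD40 included, had a named probe. None was called between hypoxia control and normoxia control (median log2 difference 0.08, beside -0.02 over all probes). PECAM1, the junctional adhesion molecule of endothelial cells, differed by -0.12, MADCAM1 by 0.16 and F11R by 0.00, and CD40 by 1.45 with an SE of 0.73. On the leukocyte side 6 of 22 genes had a probe and none was called, ITGAL and ITGAM, the integrin chains that pair with ITGB2 to bind ICAM-1, differing by 0.02 and -0.01 and ITGB2 by 0.42 (SE 0.26). ITGAL was not well above background on any array.

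Cytokine genes, their receptors and NF-κB regulators were among the called genes, beside the 3.30% of all probes called higher and 4.70% lower in this comparison. Of 26 cytokines, receptors and adaptors, 15 had a probe and 6 rose by the same call, TNF by 0.51, the pattern receptors TLR2 by 0.55 and TLR4 by 0.32, their co-receptor CD14 by 0.95, IL13RA1 by 0.35 and IL1RN, the interleukin-1 receptor antagonist, by 0.31. The last was well above background on 2 of 16 arrays. The cytokines IL1A, IL1B, IL6 and IFNG were not called, with differences of 0.25, 0.54, 0.21 and 0.01. Of 27 regulators, 5 had a probe and 4 rose, among them IRF1 by 1.81, NFKBIA by 1.33 and CEBPB by 0.54. The median difference of the cytokine list was 0.25. Of 28 genes of endothelial activation, chemokines and haemostasis, 13 had a probe, 4 rose and 2 fell. The interferon-induced chemokine CXCL10 rose by 4.13, the neutrophil chemokine CXCL8 by 1.68, PTX3 by 0.93 and TIMP1 by 0.39, whereas NOS3, the endothelial nitric oxide synthase, fell by 0.41 and PLAU by 0.27. Neither of the last 2 calls held with the processed signal, with median scaling, in the authors' values or without normoxia control replicate 2 or 3, hypoxia control replicate 1, 2 or 4, hypoxia + ketamine replicate 4 or any 1 of the normoxia + ketamine arrays. Every called gene of the lists kept its sign in all 6 other scalings.

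No probe of the whole array passed Benjamini-Hochberg adjustment in this comparison (lowest limma adjusted P 0.319), in which 1201 had an unadjusted P under 0.05. Several of the named genes were known from earlier results of these arrays and from the study, so the counts are no independent support for a direction.

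Between hypoxia + ketamine and hypoxia control, where 3.56% of all probes were called lower and 5.46% higher, 5 of the 15 cytokine genes fell (CD14 by 0.60, TLR2 by 0.44, IL13RA1 by 0.33, TLR4 by 0.27 and TNFRSF1A by 0.14), as did 1 of the 5 regulators (NFKBIA, by 0.81) and 4 of the 13 activation genes (CXCL8 by 1.42, PTGS2 by 1.16, PTX3 by 0.76 and TIMP1 by 0.38). None of these 3 lists had a gene called higher. The counts leaned on single fetuses: without hypoxia + ketamine replicate 4, 1 cytokine gene and 1 activation gene were called lower, and without hypoxia control replicate 4, no regulator and 1 activation gene. Among leukocyte genes ITGA4 fell by 0.21. In each tested comparison these 5 lists held 1 called gene, ST3GAL4, a sialyltransferase of selectin ligand synthesis. It was 0.29 higher with ketamine in normoxia, where 0.873% of all probes were called higher and 1.43% lower. In hypoxia + ketamine against normoxia + ketamine, where 3.10% were called higher and 3.75% lower, its log2 difference was -0.26. A count of 1 does not set the lists apart from these shares. Neither call of ST3GAL4 held with median scaling or without any 1 of the normoxia control arrays.

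**Figure D5:**
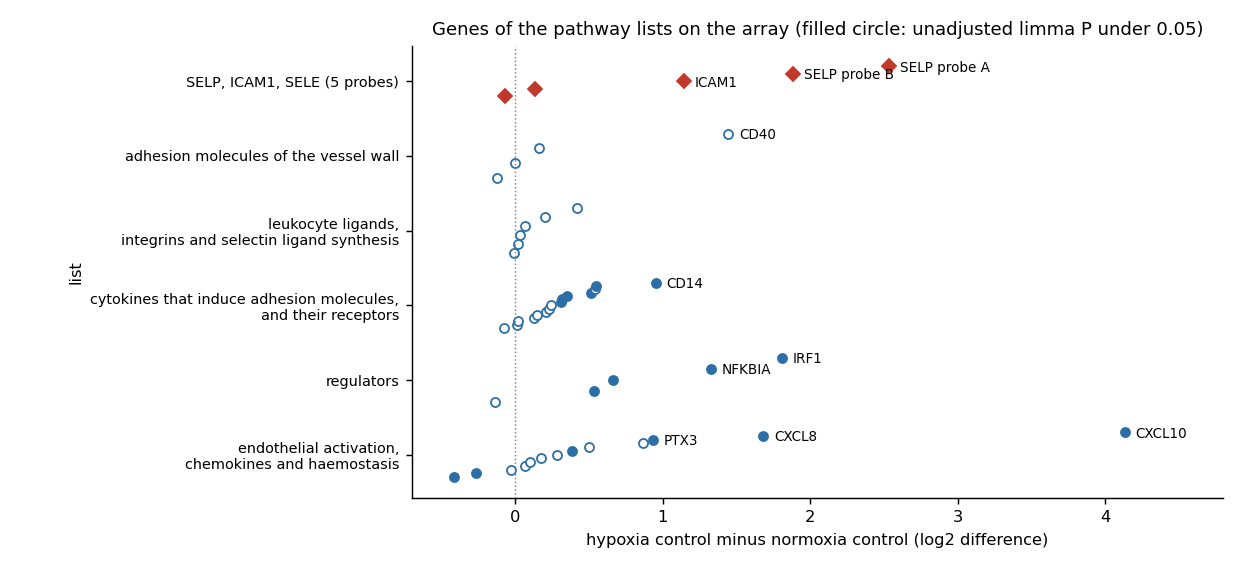
Log2 difference between hypoxia control and normoxia control (horizontal axis) of the 5 member probes (diamonds) and of the genes of 5 lists that had a named probe (circles, vertical axis by list), filled where limma's unadjusted P was under 0.05. SELP at 2.54 exceeded all listed genes except CXCL10 at 4.13, and the vessel wall list held no filled circle.

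Cell type markers were set beside these values. Of 24 endothelial markers 7 had a named probe, and their mean log2 level per fetus lay between 8.12 and 8.44 after hypoxia alone and between 8.16 and 8.46 after hypoxia with ketamine. In normoxia it lay between 8.28 and 8.41 without ketamine and between 8.19 and 8.29 with it, so hypoxia control overlapped every group. Between hypoxia control and normoxia control, 3.30% of all probes were called higher and 4.70% lower. Of the endothelial genes NOS3 and OCLN (-0.38) were called lower after hypoxia and none higher. Neither call held with median scaling or without normoxia control replicate 1 or 3 or hypoxia control replicate 2 or 4. Platelets also store P-selectin, and none of 15 platelet markers had a named probe, so their part was not tested. Among microglia and macrophage markers CD14 alone of 3 was called higher, and their mean level was 8.52 to 8.74 in normoxia control and 8.71 to 9.45 in hypoxia control. Of 5 lymphocyte markers CD5 rose by 0.90, and of 3 red blood cell markers AHSP rose by 0.89, a call that was lost without normoxia control replicate 2 or 3. Neither of 2 neutrophil markers nor any of 4 markers of pericytes, smooth muscle and fibroblasts was called. The part of these cells in the SELP and ICAM1 values was not tested.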

How the data were processed

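RNA of 16 fetal frontal cortices was hybridized by the authors to 1-colour Agilent sheep arrays. The deposited scanner files hold spot intensity from Feature Extraction 10.1.1.1, per the file headers, before normalization between arrays. The authors' deposited processed table, in log2 units and quantile normalized (limma and R 2.15.1 per the submitters' processing notes), was an alternative only. The probes carry no genome build.

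With limma 3.58.1 in R 4.3.3, mean spot signals were corrected by normexp against the median local background (offset 50), 536 control spots were left out, the others were quantile normalized, 222 outlier spots were left out, none of them a member's, and spots of a probe were averaged. Each member probe had 1 spot and none was saturated. The sheep RefSeq table and the files' names gave a gene to 1593 probes. For lists, the probe with the highest mean stood for its gene.

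One limma model over 4 groups served all comparisons, and a probe was called below an unadjusted P of 0.05, the study's threshold, with Benjamini-Hochberg adjustment beside it. Some items of the lists and of the gene order are not reported here. Exact permutation tests were two-sided, and the share called over all probes is given beside counts. The members, lists and tests were chosen with earlier results of these data known. The brain cell genes of the tissue check were chosen after the files were seen. Named beside the members were the 5 genes most correlated with each, and listed genes that were called, in the text by size. Tested on simulated data with the arrays of hypoxia control and normoxia control (14876 probes), the model called 100% of the probes changed by 1 or by 2 log2 units in the right direction and 5.35% of the unchanged ones. That rate was not shown to hold for probes that spread widely in hypoxia control. The SD there was 1.56 for SELP probe A and 0.92 for ICAM1, against 0.17 and 0.19 in normoxia control. Of listed genes that differed by more than 1 in the real arrays, CXCL10, IRF1, CXCL8 and NFKBIA were called. CD40, at 1.45 (SE 0.73), was not. Deviations of same-numbered fetuses from their group means correlated above 0.1 in 6 of 21 pairs, and the numbers were not taken to pair fetuses. Between control and ketamine fetuses, replicates 1 and 2 gave 0.35 and 0.26 in normoxia and 0.26 and 0.37 in hypoxia. Replicate 3 gave 0.04 and -0.11, and replicate 4 in hypoxia 0.05. Pairs across oxygen states also passed 0.1. Replicate 1 of normoxia control and hypoxia control gave 0.18, and replicate 4 of normoxia + ketamine and hypoxia + ketamine 0.23. Replicates 1 and 2 also shared slide 1. Littermates would share the oxygen state, and whether these fetuses were littermates was not tested. The number of arrays limits the precision. Alternatives covered background correction, normalization, dim probes, slide and replicate number as blocks, array weights, groups in the fit, the authors' values, the conflicting label, the other probe and each array left out.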

Additional observations from a re-analysis of the deposited data

Results flagged for a closer look

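Of 15 groups of 4 or 5 fetuses in which the most distant value was examined, 3 held a fetus far from the others, and chance alone sets off this rule in about 1 in 20 groups. SELP probe B read 7.57 in normoxia + ketamine replicate 2, with a gap to the next fetus of 0.948 of the group's range, while the other SELP probe read 6.82 in the same fetus. SELE probe A read 6.85 in normoxia + ketamine replicate 4 and 6.81 in hypoxia + ketamine replicate 4, with gaps of 0.830 and 0.854 of the range, and neither spot was well above background.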

How the results depend on the processing

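Across 31 alternatives for SELP and 30 for ICAM1, their differences between hypoxia control and normoxia control stayed positive (1.89 to 4.44 and 0.78 to 2.76) and those between hypoxia + ketamine and hypoxia control stayed negative (-2.45 to -1.23 and -2.14 to -0.58). The processed signal, scaled to the 75th percentile and by quantiles, gave 4.44 and 4.39 for SELP and 2.76 and 2.69 for ICAM1 after hypoxia, and -2.14 and -2.09 for ICAM1 with ketamine. The cause was not tested.

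SELP in hypoxia + ketamine against normoxia + ketamine had an unadjusted limma P above 0.05, and fell under it with the processed signal (2.67 with either scaling), with median scaling (1.45), with the replicate block (0.94), with only those groups in the fit (0.94) and without hypoxia control replicate 5. Leaving out 1 array gave 0.78 to 1.18. The replicate block, which is no pairing of fetuses here, also turned ICAM1 with ketamine in normoxia to -0.059.

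Small differences changed sign. For ketamine in normoxia, SELP was 0.53 with the array of conflicting labels counted as normoxia + ketamine and 0.058 on probe B, and ICAM1 was -0.39 with median scaling, -0.019 within slide 1 and -0.012 to 0.16 with 1 array left out. For hypoxia + ketamine against normoxia + ketamine, ICAM1 was -0.040 with the other label, -0.071 within slide 2 and -0.012 to 0.23 with 1 array left out.

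SELE, at background, had no stable sign. After hypoxia it was 0.25 and 0.16 with the processed signal, -0.31 with median scaling and 0.14 on probe A. For hypoxia + ketamine against hypoxia control it was -0.39 and -0.30 with the processed signal, -0.085 without background correction, 0.19 with median scaling, -0.0057 with the other label, -0.0085 within slide 2, -0.14 on probe A and -0.0073 to 0.037 with 1 array left out. For ketamine in normoxia it was -0.51 with median scaling, -0.018 with the other label, 0.11 and -0.093 within slides and -0.042 to 0.055 with 1 array left out. For hypoxia + ketamine against normoxia + ketamine it was 0.39 with median scaling and 0.0044 within slide 2.

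The number of probes called fell from 1201, 1355, 345 and 1028 to 134, 112, 56 and 324 with median scaling and to 0 after Benjamini-Hochberg adjustment in all 4 comparisons. For ketamine in normoxia it was 226 among probes well above background in a group and 568 with array weights. Of the lists, the cytokine genes called higher after hypoxia numbered 6, and 1 to 8 over 27 alternatives, the fewest with median scaling. The regulators numbered 4 (2 to 4, with 2 left without normoxia control replicate 2 or 3 or hypoxia control replicate 2 or 4) and the activation genes 4 (2 to 5, with 2 left without normoxia control replicate 2). Of those called lower in hypoxia + ketamine than in hypoxia control, cytokine genes numbered 5 (1 to 7, with 3 left without hypoxia control replicate 2), the regulators 1 (0 to 3) and activation genes 4 (1 to 5, with 1 left without hypoxia + ketamine replicate 3 and 2 without replicate 1 of either hypoxia group). Levels near background limit what SELE, and SELP and ICAM1 in normoxia, can show.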

Other observations

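Between hypoxia + ketamine and hypoxia control, limma called 5.46% of all probes higher and 3.56% lower. The tight junction gene OCLN was called higher by 0.43 (SE 0.14), the only 1 of 7 endothelial markers called. Of these markers 3 were higher and 4 lower by any amount (median log2 difference -0.02). In the same comparison DCN, which encodes the matrix proteoglycan decorin, fell by 0.66 (SE 0.21) and the lymphocyte marker CD5 by 0.46 (SE 0.21). Each was the only called gene of its list. Of 4 markers of pericytes, smooth muscle and fibroblasts, 1 was higher and 3 lower by any amount. Of 5 lymphocyte markers, 2 were higher and 3 lower (median log2 difference -0.05). DCN was also lower in hypoxia + ketamine than in normoxia + ketamine, with a log2 difference of -0.56 (SE 0.22). An endothelial marker was called higher under each of the 27 alternatives run on the lists, the call of CD5 was lost with median scaling and when any 1 of 9 arrays was left out, and DCN lost its second call without normoxia + ketamine replicate 1 or 3 or hypoxia + ketamine replicate 4. None of these passed Benjamini-Hochberg adjustment over all probes.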
